A study of Mus musculus with 29 samples.

Results

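The 4 mouse Hox gene clusters were followed through reduced representation bisulfite sequencing (RRBS) libraries of embryonic stem cells (ESCs) and keratinocytes. RRBS measures CpG methylation where CpGs are dense. All CpGs in the mm9 intervals that hold the Hoxa cluster (chromosome 6), the Hoxb cluster (chromosome 11), the Hoxc cluster (chromosome 15) and the Hoxd cluster (chromosome 2) were collected, and methylated and total reads were summed in bins of 1 kb with at least 3 CpGs. Bins with at least 10 reads in each of the 15 groups were kept. This left 223 Hox bins of 104388 autosomal bins chosen the same way: 52 in Hoxa, 67 in Hoxb, 54 in Hoxc and 50 in Hoxd. They run from 52100705 to 52213356 on chromosome 6, from 96051301 to 96229459 on chromosome 11, from 102750599 to 102869694 on chromosome 15 and from 74495450 to 74601888 on chromosome 2, first to last CpG. The intervals hold 38 Hox genes. The choice used position only, not a measured value.

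The embryonic stem cells were of 3 lines, named J-34, J-35 and, last, J-37, which the labels call male. They entered a medium at passage 4 and were sampled at passage 10 (p10, after 6 passages) or passage 20 (p20, after 16). S/L is serum with the cytokine LIF, and 2i/L is LIF with 2 inhibitors, of Mek1/2 and of Gsk3. For a2i/L and PKCi/L, 2 other LIF media, the labels give no composition. S/L and 2i/L had all 3 lines at both passages, a2i/L had J-34 at p10 and J-34 and J-35 at p20, and PKCi/L had J-35 at p10 and J-34 and J-35 at p20. Cells kept for 16 passages in 2i/L were put back into S/L and sampled 3 passages later (p23, 3 lines) or 10 passages later (p30, J-35 and J-37). The title of the p30 library listed here as J-35 disagrees with its cell type and protocol, which name J-34. J-34 alone was treated for 6 passages with PD or with CHIR, short names usually given to a Mek1/2 and a Gsk3 inhibitor. The Mek1/2 DKO sample was a male clonal line of induced pluripotent stem cells in S/L on irradiated fibroblast feeders. It was derived from Mek1 fl/fl, Mek2-/- fibroblasts with lentiviral M2rtTA and dox-inducible Oct4, Klf4, Sox2 and c-Myc, and a Cre plasmid removed Mek1. Neonatal keratinocytes, the proliferating cells of the epidermis, came as 1 wild-type library labelled female and 2 male libraries labelled 2i/L; how these keratinocytes were obtained from cells in 2i/L is not stated. The labels do not say that ESC libraries of 1 line came from separate cultures, so p-values measure the spread between lines and libraries.

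Hox genes encode homeodomain transcription factors that give cells their position along the body axis. Within each cluster they lie in the order in which they act, from low numbers (anterior, early) to high numbers (posterior, late), and all genes of a cluster are read in the same direction. In ESCs the clusters are held silent by Polycomb complexes, and their CpG islands are a well-known example of DNA that is largely free of methylation. In differentiated cells some Hox genes are active, and others can carry DNA methylation.

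The 250 bases before the start of 4 Hox genes show what was measured there. They were chosen because the starts of Hoxa5 and Hoxd12 lie in bins that were higher in keratinocytes, that of Hoxd4 in a bin that was lower, and that of Hoxd10 in a bin that did not pass the test. The stretches of Hoxd12 and Hoxd4 begin in the bin before, which did not pass, and part of their marked CpGs lie there. The sequences are those of RefSeq (GRCm38.p6), 5′ to 3′ in the direction of the gene; their mm9 positions were found by matching the spacing of their CpGs to the deposited CpG positions. Capitals mark the CpGs with a read in at least 1 library.
Hoxa5, chr6:52154587-52154836, minus strand: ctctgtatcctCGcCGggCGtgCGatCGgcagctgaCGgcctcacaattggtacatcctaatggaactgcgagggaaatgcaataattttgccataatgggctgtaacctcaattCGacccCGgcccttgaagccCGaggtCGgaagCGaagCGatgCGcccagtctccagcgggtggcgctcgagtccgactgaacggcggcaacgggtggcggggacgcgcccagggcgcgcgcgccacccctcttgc
Hoxd12, chr2:74512820-74513069, plus strand: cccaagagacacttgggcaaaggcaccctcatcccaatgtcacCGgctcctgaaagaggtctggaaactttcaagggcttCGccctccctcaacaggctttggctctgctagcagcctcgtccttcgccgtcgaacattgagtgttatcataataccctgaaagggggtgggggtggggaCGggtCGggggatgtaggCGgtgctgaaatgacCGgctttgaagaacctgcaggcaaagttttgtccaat
Hoxd4, chr2:74559785-74560034, plus strand: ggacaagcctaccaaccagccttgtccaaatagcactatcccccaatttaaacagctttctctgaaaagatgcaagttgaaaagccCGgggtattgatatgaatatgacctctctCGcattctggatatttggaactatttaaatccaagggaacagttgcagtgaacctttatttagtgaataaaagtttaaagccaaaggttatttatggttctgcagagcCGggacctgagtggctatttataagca
Hoxd10, chr2:74529698-74529947, plus strand: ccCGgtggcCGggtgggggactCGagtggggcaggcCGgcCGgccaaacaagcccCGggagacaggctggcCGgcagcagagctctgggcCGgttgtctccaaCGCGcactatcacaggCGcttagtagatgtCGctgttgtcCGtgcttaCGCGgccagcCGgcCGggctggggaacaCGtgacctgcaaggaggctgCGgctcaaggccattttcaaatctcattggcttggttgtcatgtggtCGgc
The Hoxa5 stretch has 28 CpGs and was read at 13, that of Hoxd10 has 20 and was read at all 20, that of Hoxd12 has 10 and was read at 6, and that of Hoxd4 has only 3, all read. The recognition letters of MspI, an enzyme commonly used for RRBS (CCGG, the same on both strands), occurred 2, 9, 2 and 2 times in the 4 stretches, and 47.1% of 32851 RefSeq promoter stretches of that length held them. Of the 38 genes, 22 had a promoter sequence in the table and 15 of these could be placed on mm9: Hoxa3, Hoxa5, Hoxa6, Hoxa11, Hoxa13, Hoxb8, Hoxc4, Hoxd1, Hoxd3, Hoxd4, Hoxd9, Hoxd10, Hoxd11, Hoxd12 and Hoxd13. The starts placed for Hoxa3 and Hoxd3 are out of numerical order: that of Hoxa3 lies upstream of the Hoxa6 start and that of Hoxd3 upstream of the Hoxd4 start. Bins are therefore described by their distance from these starts and not by exon, intron or UTR, since no mm9 annotation was used here.

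The 29 libraries held 8359802 to 22433006 reads over CpGs, of which 24315 to 64430 fell in the Hox bins, and a Hox bin had a median of 126 reads per library. The wild-type keratinocytes were the shallowest. Libraries differed in which CpGs were read. The keratinocytes, a2i/L p20, PKCi/L p20 and p30 form a set whose pairs shared 71.1 to 79.7% of their CpGs, and they shared 58.3 to 71.3% with the other libraries. Pairs among p23, S/L p20 and 2i/L p20 shared 82.5 to 86.2%. Pairs among the remaining libraries shared 69.0 to 83.1%, a range that overlaps the 69.4 to 77.1% they shared with those 3 groups, so the remaining libraries are not a set of their own. Tests therefore used the 212 Hox bins with at least 10 reads in every library, and keratinocytes were also compared with the ESC groups of their own set. Methylation does not measure expression, and none of the 10 keratinocyte genes listed as markers could be placed on mm9, so the cell type labels were not checked here.

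In S/L, the Hox clusters were sparsely methylated. The mean over all Hox bins was 16.6% ± 0.374 (SD, n = 3) in S/L p10, against 53.9% ± 0.277 over all autosomal bins. In S/L p10, 103 of the 223 Hox bins (46.2%) lay under 5%, against 22.8% of all bins, and 25 (11.2%) lay at 50% or more, against 60.5% of all bins. Hoxa was the lowest cluster at 12.7% ± 0.385 (SD, n = 3), while Hoxb (17.8% ± 0.391), Hoxc (17.8% ± 1.54) and Hoxd (17.8% ± 0.422) differed from each other by less than their spread. Bins with more CpGs were less methylated. Hox bins of 3 to 9 CpGs averaged 34.5% ± 0.732, bins of 10 to 29 CpGs 13.4% ± 0.866 and bins of 30 or more CpGs 2.84% ± 0.163 (SD, n = 3). The same classes over all autosomal bins were at 69.6%, 34.4% and 1.40%. Each cluster still held single bins of high methylation. The bin with the highest mean in S/L p10 was at 72.9% ± 4.33 in Hoxa (0.9 kb upstream of the Hoxa6 start), 86.7% ± 5.76 in Hoxb, 80.5% ± 2.87 in Hoxc and 90.0% ± 6.42 in Hoxd (at the Hoxd4 start).

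**Figure D1:**
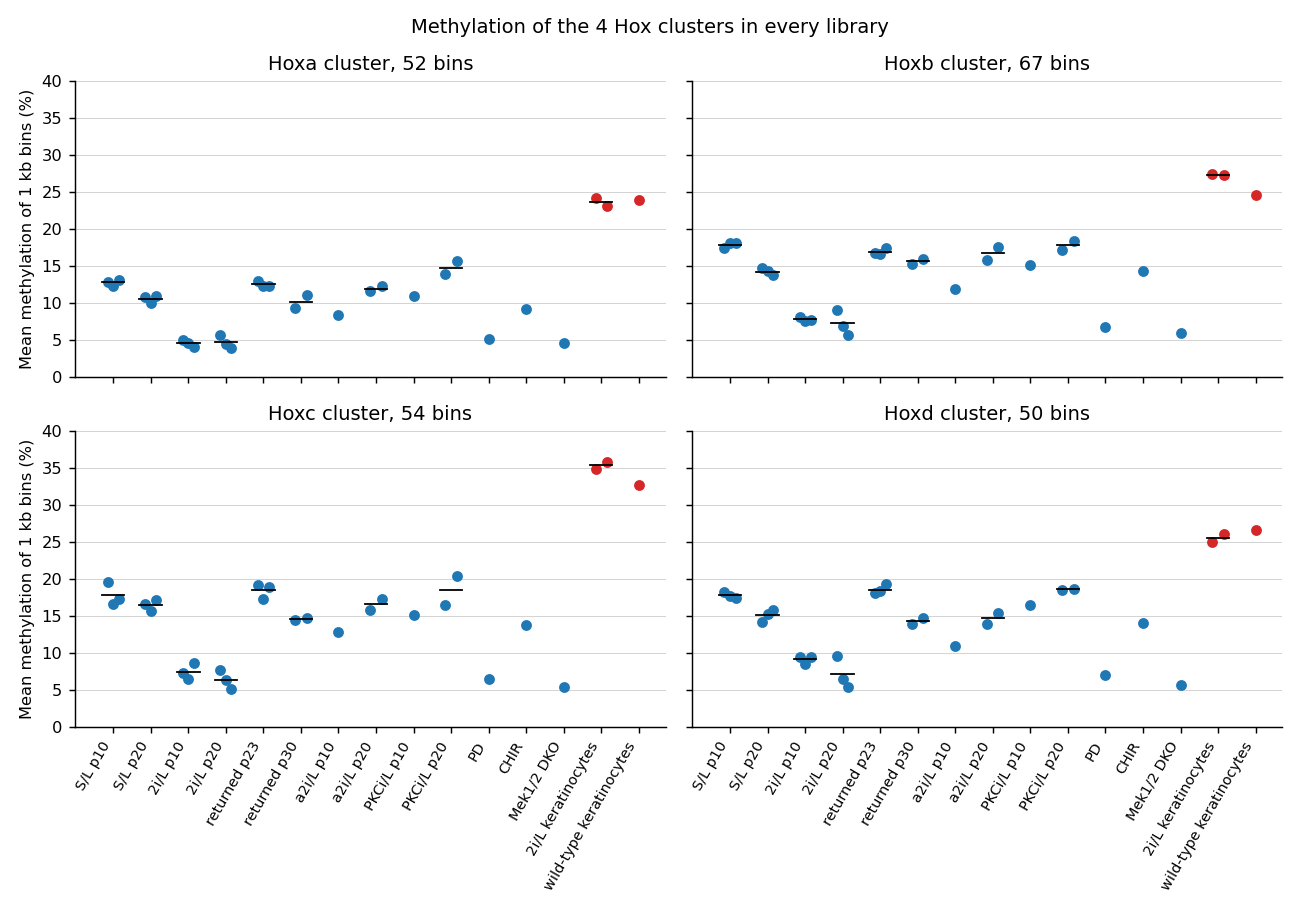
Mean methylation (%) of the 1 kb bins of each Hox cluster. Each point is 1 library, blue for stem cells and red for keratinocytes, and black lines are group means where a group has 2 or more libraries. In each cluster the 3 keratinocyte libraries lie above all stem cell libraries, and 2i/L, PD and Mek1/2 DKO lie lowest.

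Hox methylation was lower in 2i/L than in S/L in every cluster and at both passages, and stood at 35.4 to 51.2% of its S/L level. At p10 the mean over Hox bins was 7.21% ± 0.366 (SD, n = 3) in 2i/L. This was 43.4% of the S/L level, and over all autosomal bins 2i/L, at 23.4% ± 0.344, likewise stood at 43.4% of S/L. Hoxa was at 4.51% ± 0.443, Hoxb at 7.74% ± 0.326, Hoxc at 7.42% ± 1.05 and Hoxd at 9.10% ± 0.478. The 3 lines did not overlap between the media in any cluster (exact two-sided permutation p = 0.1 each, the smallest that 3 against 3 libraries allow; adjusted p = 0.125 over the 30 comparisons of levels). In the fit across all bins, a bin was called where limma gave an adjusted p below 0.05 and the group means lay 20 percentage points or more apart. By this rule 35 of the 212 Hox bins (16.5%) were lower in 2i/L p10 and none was higher, against 63.1% of all bins called lower and 0% called higher. Of the called bins, 6 were in Hoxa, 11 in Hoxb, 10 in Hoxc and 8 in Hoxd. None of the 46 bins with 30 or more CpGs was among them. A bin under 20% in S/L p10 could not be called lower. Of the 53 Hox bins at 20% or more in S/L p10, 35 were called lower, against 58187 of 62141 such autosomal bins. At these bins the median 2i/L p10 level was 39.5% of the S/L p10 level in Hox and 40.5% over all. In each comparison below, a call likewise needs at least 20% methylation in the higher group. The lower group must lie at least 20 points below full methylation.

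The largest loss was in Hoxc, 84.2 kb upstream of the Hoxc4 start (chromosome 15, 102780160 to 102780993, 17 CpGs). S/L p10 was at 72.9%, 66.0% and 73.1% in J-34, J-35 and J-37, and 2i/L p10 at 15.5%, 3.77% and 4.17%. The media differed by -62.9 points, or a log2 ratio of methylated to unmethylated reads of -4.71 ± 0.503 (SE; limma adjusted p = 1.47e-08). PD, with 10.6%, was as low as 2i/L, whereas CHIR was at 48.4%. In Hoxa, the bin 19.1 kb downstream of the Hoxa5 start (chromosome 6, 52135056 to 52135990, 15 CpGs) was at 74.3%, 66.7% and 71.0% in S/L p10 and at 19.5%, 8.24% and 11.1% in 2i/L p10. It fell by 57.7 points (adjusted p = 9.92e-08). The bin of largest loss in Hoxb, 50.8 kb upstream of Hoxb8, fell by 51.6 points, and that in Hoxd, 0.4 kb upstream of Hoxd4, fell by 49.3 points.

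At p20 Hox methylation was again lower in 2i/L. The mean over Hox bins was 6.39% ± 1.52 (SD, n = 3) for 2i/L, compared with 14.1% ± 0.279 for S/L, again without overlap (exact permutation p = 0.1). This was 45.3% of the S/L level, whereas over all autosomal bins 2i/L stood at 37.7% of S/L; the difference between these 2 percentages was not tested. By the rule above 29 of 212 Hox bins (13.7%) were called lower, against 59.6% of all bins; none was higher, against 0.00325% of all bins. Between 2i/L p20 and 2i/L p10 limma called no Hox bin, against 0.264% of all bins lower and 0.00217% higher. Without adjustment 20 Hox bins passed p = 0.05, and a quasi-binomial model, the second tool, also called none. The 3 lines spread more at p20, with 8.04% in J-34, 6.07% in J-35 and 5.06% in J-37.

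Back in S/L, the Hox clusters regained methylation within 3 passages. The mean over Hox bins at p23 was 16.6% ± 0.422 (SD, n = 3), which was 10.2 points above 2i/L p20, and 38 of 212 Hox bins (17.9%) were called higher and none lower, against 64.8% of all bins called higher. The gains lay in all 4 clusters, 8 in Hoxa, 10 in Hoxb, 9 in Hoxc and 11 in Hoxd. The bin at the Hoxd4 start (7 CpGs) is an example: it was at 50%, 40% and 29.4% in 2i/L p20 and at 87.0%, 83.6% and 85.1% in p23, a rise of 45.4 points (limma adjusted p = 1.67e-05). Against S/L p20, limma called no Hox bin in p23, while 0.882% of all bins were called higher and 0.55% lower. Without adjustment 20 Hox bins passed p = 0.05, and the quasi-binomial model called 1 higher. The mean over Hox bins was 2.51 points higher in p23 than in S/L p20, and the mean over all autosomal bins was 2.09 points higher, both without overlap between the 3 libraries of each (exact permutation p = 0.1). The largest such difference was 22.2 points in the Hoxa bin 2.4 kb upstream of the Hoxa13 start (adjusted p = 0.0992), which did not pass.

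In the other media at p20 and in p30 few Hox bins differed from S/L p20. At p20 the Hox mean was 15.1% ± 0.991 (SD, n = 2) in a2i/L and 17.4% ± 1.27 (SD, n = 2) in PKCi/L, and p30 was at 13.8% ± 0.633 (SD, n = 2). S/L p20 was at 14.1%. In a2i/L p20, 4 Hox bins (1.89%) were called higher, 1 in Hoxa, 2 in Hoxb and 1 in Hoxc, against 7.63% of all bins, and none lower, against 0.241%. With the cell line in the model as a block 2 of these were called, and leaving out 1 library at a time left 1 or 2. PKCi/L p20 had 3 higher Hox bins (1.42%), against 6.75% of all bins, and none lower, against 0.0889%. The largest of these differences, 32.0 points, was 0.2 kb upstream of the Hoxd12 start (chromosome 2, 74512754 to 74513001), where PKCi/L p20 averaged 53.2% ± 7.20 (SD, n = 2) and S/L p20 averaged 21.2% ± 6.76 (SD, n = 3; limma adjusted p = 0.0108). Without J-35 of S/L p20 or without J-35 of PKCi/L p20, no bin was called. In p30, 1 Hoxc bin was lower, at 0% and 11.1% against 42.8% ± 6.92 in S/L p20 (adjusted p = 0.000582), and 1 Hoxb bin was higher, against 0.123% of all bins called lower and 4.59% called higher. Leaving out any 1 library left 1 of these 2 bins called. Neither was called with the cell line as a block, a fit that leaves out the p30 library with conflicting labels. These 3 comparisons are between libraries that differ in the CpGs read. For a2i/L and PKCi/L, medium and coverage therefore cannot be told apart. The p30 cells were in S/L, and their earlier 2i/L culture, passage number and coverage cannot be told apart.

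Single libraries fell on either side. Over all Hox bins PD, after 6 passages, stood at 6.33%, and Mek1/2 DKO at 5.42%. PD was below the 2i/L p10 libraries (6.79 to 7.43%), also after 6 passages, and inside the wider range of 2i/L p20, after 16. Over all autosomal bins PD, at 24.2%, was above the 2i/L p10 libraries (23.1 to 23.8%). The fraction of CpGs that PD shared with 2i/L p10 libraries was 0.716 to 0.725. Among 2i/L p10 libraries it was 0.787 to 0.797, so treatment and coverage cannot be told apart for PD. CHIR stood at 12.9%, a2i/L p10 at 11.05% and PKCi/L p10 at 14.4%. As shares of all Hox reads, with Wilson 95% intervals that cover counting error only, these were 2.91% (2.77 to 3.05%) for PD, 2.68% (2.53 to 2.84%) for Mek1/2 DKO and 5.68% (5.45 to 5.92%) for CHIR. There were no replicates of these samples and no test. DKO cells also differ from the ESC lines in origin, reprogramming factors and feeders. CHIR kept the autosomal level near that of S/L p10 (52.6% against 53.9%), while its level was below the lowest S/L p10 library in each Hox cluster: 9.09% against 12.3% in Hoxa, 14.3% against 17.4% in Hoxb, 13.8% against 16.6% in Hoxc and 14.0% against 17.3% in Hoxd. PKCi/L p10 did the same, at 53.0% over autosomal bins and at 10.9%, 15.1%, 15.1% and 16.5% in Hoxa to Hoxd. The fraction of CpGs shared with S/L p10 libraries was 0.703 to 0.710 for CHIR and 0.711 to 0.719 for PKCi/L p10. Among S/L p10 libraries it was 0.822 to 0.831, so medium and coverage cannot be told apart here.

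Keratinocytes had the most methylated Hox clusters of all groups. The mean over Hox bins was 28.0% ± 0.143 (SD, n = 2) in 2i/L keratinocytes and 26.8% in wild-type keratinocytes, although the mean over all autosomal bins, 55.7% and 55.9%, was within 2 points of S/L p10. Over all 3 keratinocyte libraries Hoxc differed most, at 34.4% ± 1.63 against 17.8% ± 1.54 in S/L p10 (SD, n = 3 each). Hoxa was at 23.7% ± 0.573 against 12.7%, Hoxb at 26.4% ± 1.64 against 17.8% and Hoxd at 25.9% ± 0.833 against 17.8%. No keratinocyte library overlapped an S/L p10 or S/L p20 library in any cluster (exact two-sided permutation p = 0.1 each, the smallest possible; 0.1 after adjustment over 8 comparisons). The share of Hox bins under 5% was 46.2% in 2i/L keratinocytes, as in S/L p10, whereas 59 bins (26.5%) were at 50% or more, against 25 in S/L p10.

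In the fit across all bins, 58 of 212 Hox bins (27.4%) were higher in 2i/L keratinocytes than in S/L p10 and 15 (7.08%) were lower, against 13.4% and 10.2% of all bins. A bin within 20 points of full methylation in S/L p10 could not be called higher. The S/L p10 median was 6.57% over the 223 Hox bins and 71.6% over all autosomal bins. Shares called were not compared at equal S/L p10 levels. Higher bins numbered 14 of 51 in Hoxa, 15 of 64 in Hoxb, 18 of 51 in Hoxc and 11 of 46 in Hoxd. Lower bins numbered 6, 3, 3 and 3. Among the 58 higher bins the median went from 13.9% for S/L p10 to 76.0% for 2i/L keratinocytes, and 23 of them were under 10% in S/L p10. At these 58 bins the wild-type keratinocytes, which were not in the fit, averaged 64.7%, the 2i/L keratinocytes 68.9% and S/L p10 19.7%. In 70 of the 212 bins (33.0%) all 3 keratinocyte libraries lay above all 26 stem cell libraries, against 14.7% of all bins, and in 7 (3.30%) they lay below all, against 1.24%. Compared with S/L p20, 60 Hox bins were higher (28.3%, against 20.4% of all bins) and 11 lower (5.19%, against 7.49%). Within their own set of libraries, keratinocytes were higher in 59 bins and lower in 8 against p30 (12.0% and 9.22% of all bins), higher in 58 and lower in 14 against a2i/L p20 (11.5% and 10.3%), and higher in 55 and lower in 18 against PKCi/L p20 (11.9% and 11.3%).

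**Figure D2:**
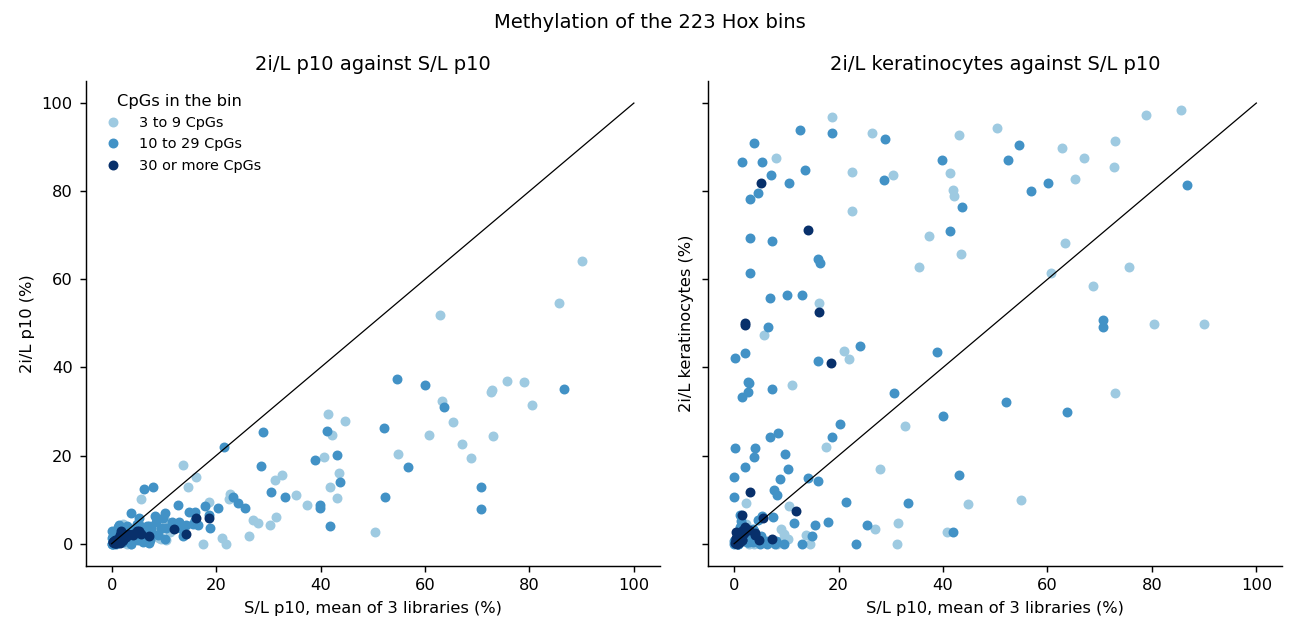
Methylation (%) of each of the 223 Hox bins in S/L p10 (horizontal, mean of 3 libraries) against 2i/L p10 (left, mean of 3) or 2i/L keratinocytes (right, mean of 2), with darker points for bins with more CpGs and a line of equality. On the left 35 tested bins were called lower and none higher. On the right 58 were called higher, 23 of them under 10% in S/L p10, and 15 lower.

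The gain was seen in every class of CpG number. In bins of 3 to 9 CpGs, 15 of 48 Hox bins (31.2%) were higher in 2i/L keratinocytes than in S/L p10, against 13.8% of all bins of that class. In bins of 10 to 29 CpGs it was 37 bins (31.4%, against 17.8%), and in bins of 30 or more CpGs 6 of 46 (13.04%, against 2.05%). Those 6 dense bins were the Hoxa5 and Hoxd12 start bins, 2 bins between the Hoxd4 and Hoxd1 starts, and 2 bins of Hoxb downstream of Hoxb8. The densest gain without a placed start, 16.3 kb upstream of the Hoxd1 start (chromosome 2, 74584407 to 74584996, 55 CpGs), was at 5.85%, 7.38% and 2.51% in S/L p10. It was at 82.3% and 81.2% in the 2i/L keratinocytes and 84.5% in the wild type, and the 26 stem cell libraries ranged up to 10.1%. The difference was 76.5 points (log2 ratio 6.38 ± 0.579 SE; limma adjusted p = 4.4e-10).

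**Figure D3:**
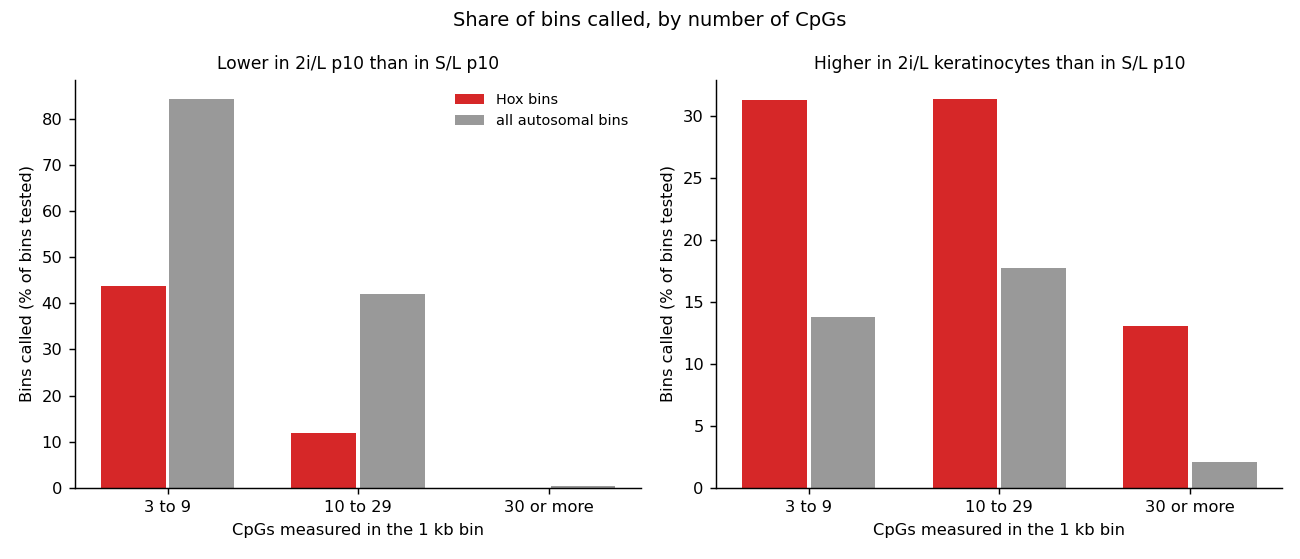
Share of tested bins (%) called lower in 2i/L p10 (left) or higher in 2i/L keratinocytes (right), each against S/L p10, by the number of CpGs in the bin, for Hox bins (red) and all autosomal bins (grey); the vertical scales differ. From few to many CpGs, the Hox shares are 43.8, 11.9 and 0% on the left (all bins 84.3, 42.1 and 0.437%) and 31.2, 31.4 and 13.04% on the right (all bins 13.8, 17.8 and 2.05%).

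The 3 largest gains were in Hoxc. The bin 107.3 kb upstream of the Hoxc4 start (chromosome 15, 102757125 to 102757973, 24 CpGs) was at 3.42%, 4.55% and 3.68% in S/L p10, at 91.4% and 90.6% in 2i/L keratinocytes and at 93.1% in wild-type keratinocytes. It differed by 87.1 points (log2 ratio 7.62 ± 0.613 SE; limma adjusted p = 6.55e-11), and the highest stem cell library was p30 J-37 with 11.3%. Just downstream of the Hoxc4 start (0.5 kb; 102865002 to 102865664, 28 CpGs) S/L p10 was at 1.00%, 1.58% and 1.75% and the 2i/L keratinocytes at 86.5% and 86.7%, with 91.2% in the wild type (85.2 points, adjusted p = 1.55e-11). Hoxc4 encodes the lowest-numbered protein of its cluster, and its start bin had too few reads for the test. The bin 23.3 kb upstream of it (28 CpGs) rose by 81.4 points. In Hoxa, the bins 34.3 kb and 41.0 kb downstream of the Hoxa5 start rose by 81.2 and 79.6 points.

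The gains were not spread evenly along the clusters. In Hoxa, 20 tested bins lay downstream of the Hoxa5 start, on the side away from Hoxa6 and Hoxa13. Of these, 12 were higher in 2i/L keratinocytes and 1 was lower, and their mean was 13.8% for S/L p10, 46.7% in 2i/L keratinocytes and 49.1% in the wild type. In the 31 bins upstream, which hold the placed Hoxa3 start and reach past Hoxa13, 2 were higher and 5 lower, and the mean was 11.5%, 6.83% and 6.18%. In Hoxd, 9 of the 19 bins downstream of the Hoxd4 start were higher and 1 was lower, with means of 25.1%, 46.4% and 46.8%. In the 27 bins upstream of it, which hold the placed Hoxd3 start and reach past Hoxd13, 2 were higher, the Hoxd12 start bin and the next, and 2 were lower, with means of 12.4%, 9.91% and 11.1%. Between the Hoxd11 and Hoxd9 starts none of 9 bins was called. In Hoxb, 11 of the 36 bins downstream of the Hoxb8 start were higher and none was lower, and upstream of it 4 of 28 were higher and 3 lower. Hoxc had higher bins along its whole length, 16 of 49 before the Hoxc4 start and both tested bins after it. These divisions at a start were chosen after the values had been seen and carry no test.

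**Figure D4:**
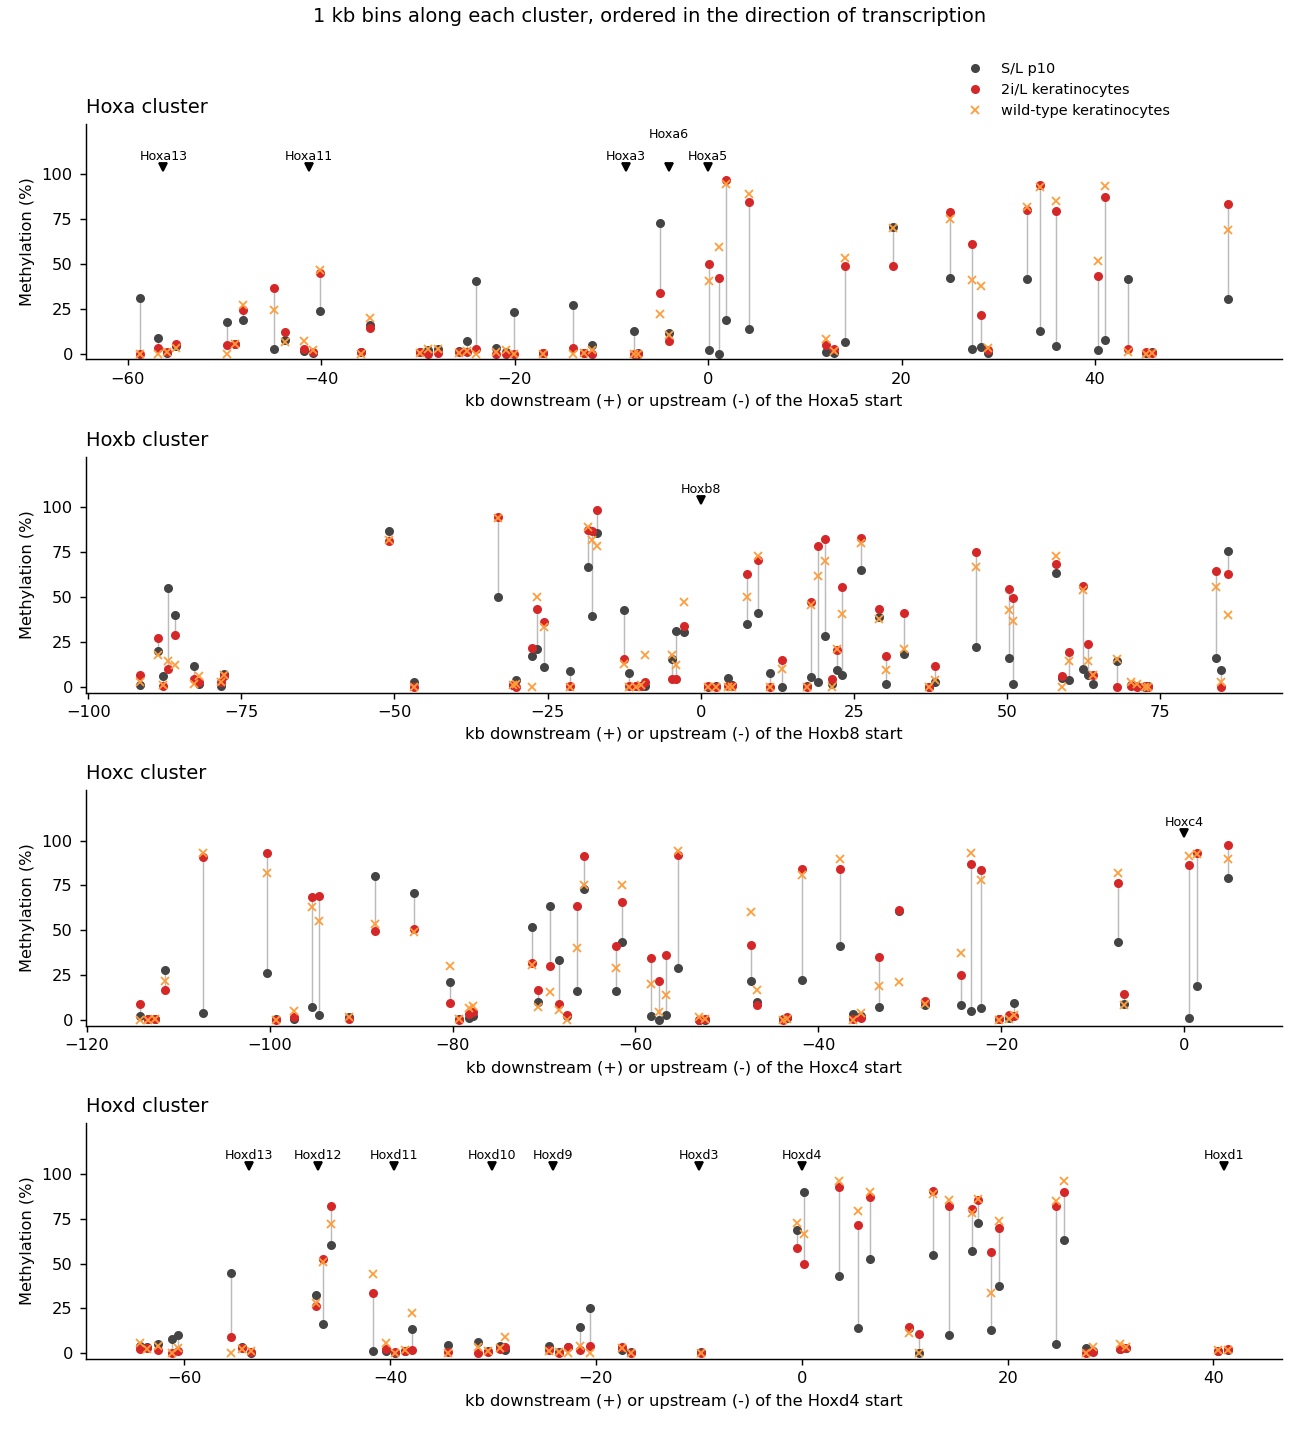
Methylation (%) of the 1 kb bins along each cluster, by distance in kb from 1 placed gene start, in the direction of transcription; triangles mark placed starts. Points are means of S/L p10 (grey, n = 3) and 2i/L keratinocytes (red, n = 2), joined by a line, and crosses are the wild-type keratinocytes (n = 1). Upward lines gather right of Hoxa5, where 12 of 20 tested bins were higher, and between Hoxd4 and Hoxd1, where 9 of 18 were.

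The 15 losses in keratinocytes were smaller and lay mostly in bins of intermediate methylation, with means of 46.9% for S/L p10 and 13.7% for the wild-type library. The largest was in Hoxb, 87.0 kb upstream of Hoxb8 (chromosome 11, 96056126 to 96056285, 9 CpGs), at 55.5%, 56.1% and 53.1% in S/L p10 against 10.5% and 9.43% in 2i/L keratinocytes and 14.6% in the wild type (limma adjusted p = 1.25e-06). In Hoxa, the bin 15.5 kb upstream of the placed Hoxa3 start, between it and the Hoxa11 start (chromosome 6, 52178128 to 52179000, 8 CpGs) was at 48.5%, 47.4% and 26.2% in S/L p10 and at 5.17%, 0% and 0% in the 3 keratinocyte libraries (adjusted p = 7.42e-07). Both bins were also called lower in 2i/L p10, where they averaged 20.4% and 19.6%.

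At the placed promoters most Hox genes were unmethylated in all cells. For 12 of the 15, the 300 bases around the start (250 before, 50 after) had at least 10 reads in each group. At 8 of them (Hoxa6, Hoxa13, Hoxd1, Hoxd3, Hoxd9, Hoxd10, Hoxd11 and Hoxd13), measured at 8 to 30 CpGs each, no library exceeded 5.26%, and no keratinocyte library exceeded 2.52%. At Hoxd3 none of the 12 CpGs in the 250 bases before the start was read, so its value rests on the 50 bases after it. Of these, Hoxa13, Hoxd9, Hoxd10, Hoxd11 and Hoxd13 pattern the posterior body and the limbs. At the Hoxd10 sequence shown above, the 3 keratinocyte libraries had no methylated read among 75, 46 and 57, and the 26 stem cell libraries lay between 0% and 1.64%. At Hoxa11 the 2i/L keratinocytes were at 0% and 16.7% and the wild type at 13.04%, with as few as 6 reads in a library.

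Hoxa5, a gene that acts in lung and skeletal patterning, stood apart. Its 300 bases were at 1.68%, 4.24% and 3.31% in S/L p10, at 0.775%, 0.719% and 0% in 2i/L p10, at 48.6% and 53.7% in 2i/L keratinocytes and at 25.0% in the wild type. The 26 stem cell libraries lay between 0% and 4.74%, so no keratinocyte library overlapped them. The 1 kb bin with the Hoxa5 start (chromosome 6, 52154001 to 52154983, 57 CpGs) averaged 50.1% ± 2.02 (SD, n = 2) in 2i/L keratinocytes against 2.04% ± 0.433 (SD, n = 3) for S/L p10, a difference of 48.0 points (limma adjusted p = 2.14e-10), and at 40.9% in the wild type. At Hoxd12, a posterior gene, the 300 bases were at 13.8%, 16.0% and 12.4% in S/L p10, at 31.7% and 30% in 2i/L keratinocytes and at 35.5% in the wild type. PKCi/L p20 of J-35 reached 35.1% there. The start bin of Hoxd12 (41 CpGs) rose from 16.2% ± 1.84 to 52.6% ± 1.06 (36.3 points, adjusted p = 0.000138). Hoxd4, whose stretch has few CpGs, went the other way. Its 300 bases were at 96.4%, 80.6% and 97.0% in S/L p10, at 40.5%, 44.4% and 41.7% in 2i/L p10, at 45.2% and 32.6% in 2i/L keratinocytes and at 64.7% in the wild type, with 24 to 74 reads per library. The bin with its start fell by 40.3 points in keratinocytes (adjusted p = 0.00032) and by 25.8 points in 2i/L p10 (adjusted p = 0.000944). At Hoxc4 the wild-type keratinocytes had 15 reads, all methylated, and the 2i/L keratinocytes 9 and 2, too few for a value. Of the 12 start bins that could be tested, 2 were higher and 1 was lower in 2i/L keratinocytes than in S/L p10. This is near the 13.4% and 10.2% of all bins, whatever their CpG number. The median difference was 0.374 points, against 0.333 over all bins. Both higher bins, of Hoxa5 and Hoxd12, had 30 or more CpGs, a class in which 2.05% of all bins were higher. The lower bin, of Hoxd4, had 7 CpGs, and 14.0% of all bins of 3 to 9 CpGs were lower. The share of start bins called was not tested.

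**Figure D5:**
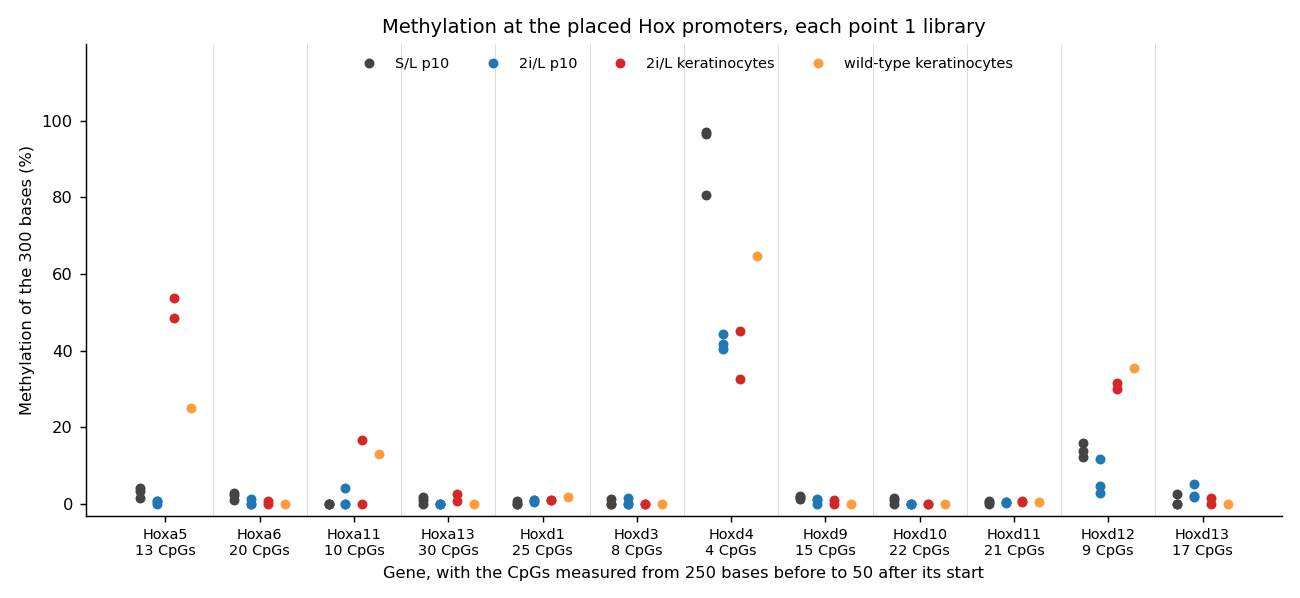
Methylation (%) of the 300 bases at 12 placed Hox promoters, 1 point per library, in S/L p10 (grey), 2i/L p10 (blue), 2i/L keratinocytes (red) and wild-type keratinocytes (orange). Hoxa5 is near 0% in ESCs and at 25.0 to 53.7% in keratinocytes, Hoxd12 is higher in keratinocytes, Hoxd4 is lower, and the other promoters stay near 0% but for Hoxa11.

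Between the mean of the 2i/L keratinocytes and the wild-type library the median absolute difference over the 212 Hox bins was 2.68 points, against 2.35 points between the 2 replicates of 2i/L keratinocytes. Over all autosomal bins tested these medians were 3.97 and 3.86 points. The 2i/L mean and the wild-type library were 20 points or more apart in 9 Hox bins, with the 2i/L keratinocytes higher in 6, and the 2 replicates were so in 5 bins. Over all 92196 bins the numbers were 5397 and 4935. In each pair of values the first sets a mean of 2 libraries against 1 library, and the second sets 1 library against 1. Averaging lowers the noise of the first, so the values of a pair are not like for like. With 1 wild-type library, labelled with the other sex, there is no test of the difference between the 2 keratinocyte groups.

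Genes that neighbour the Hox clusters or work with Hox proteins were read at their starts where these could be placed. The flanking genes Mtx2, Skap2 and Snx11, the ParaHox genes Gsx1 and Gsx2, the TALE cofactors Meis1, Meis3, Pbx2 and Pbx4 (homeodomain partners of Hox proteins), and 7 genes of Polycomb and Trithorax regulators (Ezh2, Suz12, Bmi1, Ring1, Rnf2, Cbx7 and Kmt2a) had their start bins tested. None was called in 2i/L p10 or in 2i/L keratinocytes against S/L p10, in either direction. Over all bins, 63.1% were lower in 2i/L p10, and 13.4% were higher and 10.2% lower in keratinocytes. Most of these start bins had 30 or more CpGs, a class in which these shares were 0.437%, 2.05% and 0.0981%. Those of Mtx2, Snx11, Meis1, Pbx4 and Rnf2 were in the class of 10 to 29 CpGs, with 42.1%, 17.8% and 6.08%. In the promoter bases at each start, the S/L p10 mean was at most 1.79% (Bmi1). A bin under 20% in S/L p10 could not be called lower, so no conclusion is drawn from the absence of lower calls. The median differences of these start bins in keratinocytes were -0.347, 1.44, 0.284 and 0.0996 points in that order of lists. The Meis1 bin differed most, by -13.9 points in keratinocytes (limma adjusted p = 0.000178), under the size asked for. It was called lower in keratinocytes than in a2i/L p20 (-23.9 points) and PKCi/L p20 (-28.1 points), and higher in PKCi/L p20 than in S/L p20 (21.1 points, adjusted p = 0.0117). The start bins of the antisense transcripts Hoxa11os, which is also the Hoxa11 start bin counted above, and Hoxb3os were not called either. Nor were those of Tfcp2l1, Twist1 and Twist2, the placed genes of the pluripotency and fibroblast lists. These lists had 3 of 8, 2 of 5, 4 of 9, 7 of 12, 1 of 8 and 2 of 7 genes placed.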

How the data were processed

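RRBS reads of 29 mouse libraries had been aligned with BSMAP 2.89 to mm9, per the submitters' processing notes. Trimming, filters and bisulfite conversion are not given here. Per the labels' protocols, libraries were made with a NuGen Ovation kit, with 12 barcoded reactions pooled before bisulfite conversion. The authors deposited 1 list of CpGs per library, with methylated and all reads in 1 text field. Beside it the authors deposited a score, which was 1000 times the methylated share cut to a whole number at each CpG of each library. The files show no normalization or pooling.

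Reads were summed per 1 kb bin. The main test was limma 3.58.1 (R 4.3.3) on log2((methylated + 1)/(unmethylated + 1)), fitted to the 23 libraries of the 9 groups with replicates, with group as the factor and Benjamini-Hochberg adjustment over 92196 autosomal bins. Percentages are means over bins or libraries of each library's share of methylated reads; library means were compared with an exact permutation test, two-sided (scipy 1.17.1). A quasi-binomial logistic model was the second tool, and the fit was tested on simulated data. Same-numbered libraries come from the same ESC line and so pair by design, though the correlation of their deviations over 30 pairs ran only from -0.0245 to 0.0734. Named bins are up to 5 called Hox bins of largest difference per comparison, the largest per cluster where fewer than 5 were called, the highest bin per cluster in S/L p10, and the placed promoters; other bins named were chosen after their values were seen.

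RefSeq promoters were placed on mm9 without coordinates, from the spacing of their CpGs. At least 5 CpGs had to match on the chromosome (4 within a cluster), and 2 more than at the next best place. The search within a cluster, with its limit of 4, and the margin of 2 were added after the data were examined. The members and gene lists were chosen with earlier results of these data known. Replicate pairs differed by more than sampling noise in each group. Reads carry no molecular identifiers, so intervals cover counting error only.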

Additional observations from a re-analysis of the deposited data

How the results depend on the processing

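Shares below are of tested Hox bins. Every mean level kept its direction under all alternatives run; 74 of their values moved by less than 1 SD and 25 by more. Taken as shares of all reads, the difference from S/L was -4.73 points in 2i/L p10 and -3.31 in 2i/L p20, and p23 was 1.36 points above S/L p20. For keratinocytes against S/L p10 and then p20 it was 8.59 and 9.84 points in Hoxa, 6.42 and 8.95 in Hoxb, and 13.6 and 14.5 in Hoxc; for Hoxd against S/L p20 it was 9.56. With only CpGs read in every library, 2i/L p10 differed by -8.36 points, and the keratinocytes by 9.71 and 11.3 points in Hoxa, 7.12 and 10.5 in Hoxb, and 18.3 and 19.7 in Hoxc. With at least 20 reads per bin and library these values were -7.74 in 2i/L p10, -6.17 in 2i/L p20, 2.09 for p23 against S/L p20, 8.74 and 10.8 in Hoxa, 10.7 for Hoxb against S/L p20, and 9.61 and 11.9 in Hoxd.

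Of the shares of bins called, 135 values stayed within 1.5 times and 28 did not. Asking for 10 points in place of 20 gave 26.9% lower in 2i/L p10, 22.2% lower in 2i/L p20, 28.8% higher in p23 against 2i/L p20, 1.89% in p30, 2.83% in PKCi/L p20 and 8.96% lower in keratinocytes against S/L p20. The quasi-binomial model gave 0.472% in p23 against S/L p20, 2.83% in p30 and 3.30% in PKCi/L p20. With only shared CpGs p30 had 1.55% and PKCi/L p20 0.518%, and p30 had 0.546% with 20 reads and 0.472% with 0.5 added to each read number. With the cell line as a replicate block, a pairing by line, p30 had 0% and a2i/L p20 0.943%; the share called moved by less than 1.5 times in the other comparisons fitted with the block. With p30 in place of S/L p10, a comparison chosen after seeing the data like those with a2i/L and PKCi/L p20, keratinocytes were lower in 3.77%.

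Leaving out 1 library at a time gave 0.472% in every case for p30, 0.472 to 0.943% for a2i/L p20 and 0 to 0.943% for PKCi/L p20, with 0% where J-35 of S/L p20 or of PKCi/L p20 was left out. Where this left 1 library in a group, it was assumed to vary like the other groups. Of the values of single bins, 524 kept their side of the threshold, 38 no longer passed, 5 newly passed and 1 reversed. This was the Hoxc bin at 102799 kb of chromosome 15 in 2i/L p20 against 2i/L p10, which never passed: it ranged from -16.0 to 2.44 points, the latter without J-37 of 2i/L p20. Bins with as few as 10 reads in a library limit how finely a share can be read.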
